A study of Homo sapiens with 12 samples.

Results

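RERE, LPP and LMO7 are 3 long genes, studied here in Huh7 cells, a human hepatocellular carcinoma line. Their H3K27ac ChIP-seq peaks were taken from 3 fixed windows on hg19, where they formed clusters. The place of these peaks within the gene bodies was not checked on hg19. The windows were chr1:8410000-8880000 for RERE (470 kb, minus strand), chr3:187870000-188610000 for LPP (740 kb, plus strand) and chr13:76190000-76440000 for LMO7 (250 kb, plus strand). Together they held 156 peaks of the siNC list (41082 in all) and 130 of the siHSF1 list (45586 in all), and these merged into 168 of 51253 regions. HSF1 and H3K27ac CUT&Tag peaks were taken on hg38 from the GENCODE bodies of the same genes and 20 kb on both sides, which held 9 of 7147 HSF1 peaks and 1 of 1299 H3K27ac peaks. Positions on the different builds were not set side by side. The windows were proposed with the siNC and siHSF1 values in view, so the ChIP-seq values below are a description and carry no test.

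For ChIP-seq, Huh7 cells were collected 48 h after transfection with a negative control siRNA (siNC, labelled WT) or with siHSF1 (labelled HSF1 knockdown), and CUT&Tag used Huh7 cells labelled WT without treatment. Each group was 1 library of 1 cell line, so no difference has a replicate check, and the labels do not name which siRNA against HSF1 the ChIP-seq used. After duplicate removal the siNC library kept 9795121 tags and the siHSF1 library 10793650, while the HSF1 CUT&Tag library kept 2712212 and the H3K27ac CUT&Tag library 896393.

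H3K27ac is the acetylation of lysine 27 on histone H3, laid down by the acetyltransferases p300 and CBP at active promoters and enhancers. Clusters of closely spaced H3K27ac peaks are the usual starting point for calling super-enhancers. HSF1 is the transcription factor of the heat shock response and binds, as a trimer, to inverted repeats of GAA. RERE is an atrophin-family nuclear receptor corepressor, LPP is a zyxin-family LIM protein of focal adhesions, and LMO7 is a LIM and PDZ domain protein of cell junctions and the actin cytoskeleton.

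Of the 9 HSF1 CUT&Tag peaks of these genes 8 lay inside the gene bodies, and none was at the start of the MANE Select transcript, the reference transcript chosen jointly by RefSeq and GENCODE. RERE (ENSG00000142599.20, hg38 chr1:8352397-8848921) and its flanks held 4 HSF1 peaks, LPP (ENSG00000145012.15, chr3:188153284-188890671) held 3 and LMO7 (ENSG00000136153.20, chr13:75620434-75859870) held 2. By summit, 6 of the 9 peaks were intronic, 2 were in an annotated exon and 1 was outside the gene, 9361 bp upstream of the outermost RERE start. The summit nearest to a MANE Select start was 17.0 kb away in LPP, 40.6 kb away in RERE and 124 kb away in LMO7. All 3 genes are longer than 200 kb and held at least 2 HSF1 peaks, which 14.6% of the 1502 protein-coding genes of that length did (the length limit was set after these genes were known).

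Sequences under these peaks are shown because their letters can be compared with the element HSF1 binds, on the strand of each gene, from hg38. In the first 3 lines capitals mark CCAAT, the box read by NF-Y, or paired GAA units, and a line without capitals held neither. They are stretches of up to 151 bases centred on the summit, of the most enriched RERE peak without its exon bases, of the most enriched LPP peak, and of an LPP peak with CCAAT on the other strand (ATTGG). The last 3 lines are paired units GAANNTTC in a RERE peak and a LMO7 peak at internal starts, with 8 bases on both sides.
RERE intron, chr1:8526040-8526143: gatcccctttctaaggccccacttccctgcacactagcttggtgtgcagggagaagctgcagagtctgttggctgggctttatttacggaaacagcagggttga
LPP intron, chr3:188171115-188171265: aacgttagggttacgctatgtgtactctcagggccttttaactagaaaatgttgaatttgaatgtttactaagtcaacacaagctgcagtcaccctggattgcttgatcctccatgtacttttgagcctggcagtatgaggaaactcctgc
LPP intron, chr3:188839426-188839576: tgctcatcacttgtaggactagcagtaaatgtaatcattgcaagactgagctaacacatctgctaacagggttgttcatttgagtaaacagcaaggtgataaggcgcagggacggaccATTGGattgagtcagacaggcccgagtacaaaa
RERE internal start, chr1:8424272-8424295: ttggctggGAAGCTTCcgcggtga
LMO7 internal start, chr13:75760467-75760490: tagaaacaGAATGTTCctcctctt
LMO7 internal start, chr13:75760837-75760860: tggactttGAAGCTTCgaagttat

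The full heat shock element was searched on both strands as GAA, any 2 bases, TTC, any 2 bases and GAA. It was found within 100 bp of 0 of the 9 summits, and within 100 bp of 0.196% of all 7147 HSF1 summits. CCAAT, on both strands, was found within 100 bp of 3 of the 9 summits (1 in RERE and 2 in LPP), against 30.7% of all HSF1 summits. The shorter unit GAANNTTC, which reads the same on both strands, was found within 100 bp of 0 of the 9 summits against 2.66% of all, and the inverse order TTCNNGAA of 0 against 3.06%. Across the whole peak CCAAT was found in 6 of the 9, against 41.8% of all peaks. The search of the whole peak was added after the sequences were seen, and a match is a description of the letters, not a binding site. RefSeq promoter windows of 300 bases, which are longer than the summit windows, held GAANNTTC in 6.77%, CCAAT in 34.6% and the full element in 0.490% of 35116 cases. The promoter table matched 2 of the 3 genes, with 7 windows for LPP and 5 for LMO7.

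In LMO7 the peak at an internal start was the highest of the 9. It covered chr13:75760416-75760870 and had a pileup, the number of extended tags over its summit, of 20 (95% Poisson interval 12.2 to 30.9, counting error only) and a fold enrichment over its local background (with 1 added to both) of 9.91. It stood above 90.4% of all HSF1 peaks in fold enrichment and above 80.8% in pileup. Its summit lay 6 bp from the start of LMO7-218, 5 annotated LMO7 starts lay inside the peak, and 124 kb separated it from the MANE Select start. The second LMO7 peak, chr13:75792701-75792903, was intronic, 3898 bp from the nearest LMO7 start, with a pileup of 10 (4.80 to 18.4) and a fold enrichment of 6.79.

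In RERE, 2 of the 4 peaks were at internal starts as well. The most enriched, chr1:8525878-8526203, held 4 annotated RERE starts and had a pileup of 11 (5.49 to 19.7) and a fold enrichment of 8.00, with its summit 29 bp from the start of RERE-217. The other, chr1:8424130-8424329, lay 394 kb downstream of the MANE Select start and 96 bp from the start of RERE-208, with a pileup of 9 (4.12 to 17.1) and a fold enrichment of 5.95. Its window had a GC content of 76.1%, whereas the other 8 summit windows were between 42.3% and 54.2% and the median of all HSF1 summits was 63.2%. The intronic peak chr1:8626497-8626751 had a pileup of 7 (2.81 to 14.4) and a fold enrichment of 5.56, and the upstream peak chr1:8858227-8858453 a pileup of 12 (6.20 to 21.0) and a fold enrichment of 6.02. All 4 pileups were below the median of 13 over all HSF1 peaks, and 1 of the 4 fold enrichments was above the median of 6.85.

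In LPP all 3 HSF1 peaks were intronic and at least 6252 bp from any annotated LPP start. The peak chr3:188171168-188171375 had a pileup of 9 (4.12 to 17.1) and a fold enrichment of 7.04. The peak chr3:188206111-188206537 had the lowest pileup of the 9, 6 (2.20 to 13.1), with a fold enrichment of 4.93. The third, chr3:188839363-188839567, lay 685 kb downstream of the MANE Select start with a pileup of 8 (3.45 to 15.8) and a fold enrichment of 6.16. The pileup intervals of all 9 peaks overlapped, and differences in height between them were not tested.

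An HSF1 peak within 1 kb of an internal start but not of the MANE Select start was thus found in RERE and LMO7 and not in LPP. By peaks, 3 of the 9 summits lay within 1 kb of an annotated start of their gene, where 69.1% of all HSF1 summits lay within 1 kb of some start. Of 1449 protein-coding genes of at least 200 kb with a MANE Select start, 5.52% had this arrangement, a count made after the peaks were seen. At RERE 8 of 21 distinct annotated starts, and at LMO7 6 of 26, were within 1 kb of an HSF1 peak, while at LPP 0 of 23 were. These neighbouring starts shared 2 HSF1 peaks in RERE and 1 in LMO7, so they are not separate cases. The share over the annotated starts of all genes was not counted.

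H3K27ac CUT&Tag gave 1 peak in RERE and 0 in LPP and LMO7. Of protein-coding genes of at least 200 kb, 11.8% had at least 1. The RERE peak, chr1:8712260-8712551, was intronic, 105 kb downstream of the MANE Select start and 9136 bp from the nearest RERE start, with a pileup of 12 (6.20 to 21.0) and a fold enrichment of 6.84. It was 85.5 kb from the nearest HSF1 peak, and the nearest H3K27ac CUT&Tag peak to the other HSF1 peaks was 146 kb to 949 kb away. This library kept 896393 of 15737890 tags after duplicate removal, so the absence of a peak in LPP and LMO7 was at low depth.

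In the H3K27ac ChIP-seq lists, less of each window lay under peaks in the siHSF1 list than in the siNC list. The RERE window had 63 siNC and 59 siHSF1 peaks, which covered 71854 bp and 34585 bp. The LPP window had 78 and 56 peaks, covering 74156 bp and 27045 bp. The LMO7 window had 15 and 15 peaks, covering 20731 bp and 9332 bp. The siHSF1 to siNC ratio of covered length was thus 0.481 in RERE, 0.365 in LPP and 0.450 in LMO7, against 0.577 over all chromosomes, and the ratio of peak number was 0.937, 0.718 and 1.00 against 1.11. Mean peak length was 1141 bp for siNC and 586 bp for siHSF1 in RERE, and 1021 bp and 531 bp over all chromosomes. The fragment length used to extend the tags moved with the condition, 297 bp for siNC and 175 bp for siHSF1. With each siNC peak shortened by the difference of 122 bp, an alternative added after the data were seen, the ratios were 0.539, 0.418 and 0.494 against 0.655 over all chromosomes.

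Regions with a peak in siNC only outnumbered those with a peak in siHSF1 only in all 3 windows. RERE had 34 regions with a siNC peak only, 11 with a siHSF1 peak only and 27 shared. LPP had 47, 8 and 26, and LMO7 had 10, 0 and 5. A siNC peak only was thus found in 47.2%, 58.0% and 66.7% of the regions, against 38.7% of all merged regions, and a siHSF1 peak only in 15.3%, 9.88% and 0% against 22.6%. The 91 regions with a siNC peak only were the lower ones, with 1 peak each and a median fold enrichment of 4.52 (2.82 to 7.22), whereas the shared regions had a median siNC fold enrichment of 6.64. The 19 regions with a siHSF1 peak only ranged from 4.08 to 5.98. In 28 of the 58 shared regions several siHSF1 peaks lay within the region, up to 6, and in 7 several siNC peaks did. Of all 19826 shared regions, 7722 held several siHSF1 peaks, up to 15, and 1338 held several siNC peaks. In LMO7, 4 of the 5 shared regions held several siHSF1 peaks where each held 1 siNC peak.

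At the shared regions the median siHSF1 to siNC ratio of fold enrichment was 0.904 in RERE, 0.930 in LPP and 0.976 in LMO7, against 0.996 over all chromosomes. On the log2 scale these medians were -0.15 in RERE (quartiles -0.43 and 0.04, 27 regions), -0.10 in LPP (-0.53 and 0.14, 26 regions) and -0.04 in LMO7 (-0.29 and -0.0031, 5 regions). Over all 19826 shared regions it was -0.01 (-0.31 and 0.30). RERE had 17 of 27 regions lower in the siHSF1 list, LPP 17 of 26 and LMO7 4 of 5, against 9990 of all 19826. At least 1.5-fold lower were 2 in RERE, 7 in LPP and 0 in LMO7, where 10.3% of all shared regions were, and at least 1.5-fold higher were 1, 3 and 0, where 11.0% of all were. A region at least 2-fold lower occurred in LPP only, in 1 case, against 1.60% of all, and 0 were at least 2-fold higher, against 2.38%. With pileup scaled to each library's tag number in place of fold enrichment the median over all shared regions itself moved to -0.53, and relative to it RERE was lower by 0.20, LPP by 0.20 and LMO7 by 0.27 on the log2 scale. With the pileup also divided by fragment length the medians were 0.04 in RERE, 0.03 in LPP and -0.03 in LMO7, so that the sign turned in RERE and LPP, while the median over all shared regions was 0.24 and the differences from it were the same as with tag number alone.

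**Figure D1:**
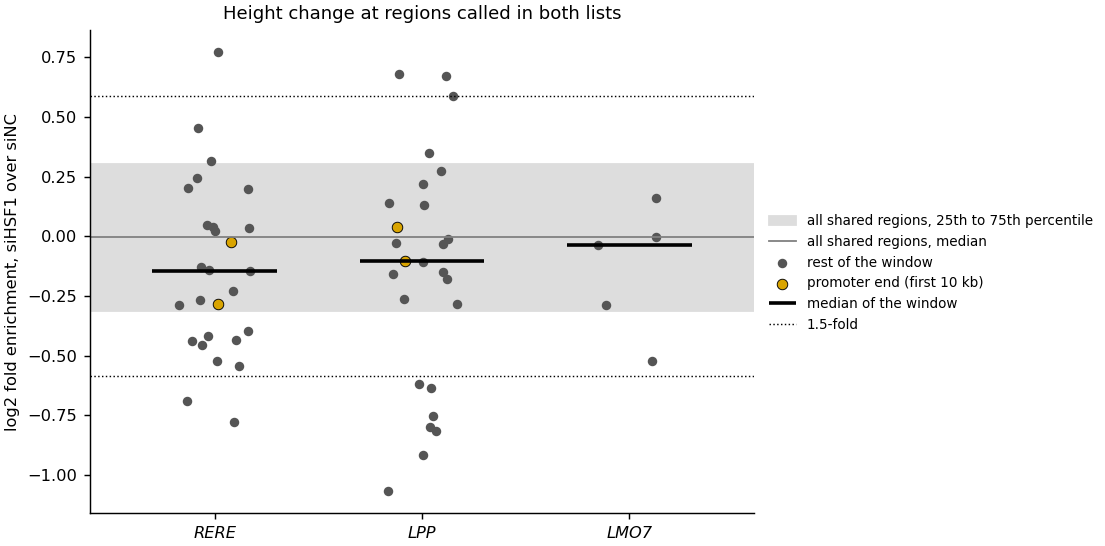
Log2 ratio of fold enrichment, siHSF1 over siNC, at each region called in both lists, by gene, with regions of the first 10 kb in yellow, the window median as a black bar, the 25th to 75th percentile of all 19826 shared regions in grey and dotted lines at 1.5-fold. LPP has 7 points below the lower dotted line, RERE 2 and LMO7 0.

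The promoter end, the first 10 kb from the 5′ edge, could be compared with the rest of the window in RERE and LPP. At the RERE promoter end 4 siNC and 2 siHSF1 peaks covered 3.50 kb and 1.81 kb, and the median log2 ratio over its 2 shared regions was -0.15, as over the 25 in the rest (-0.15). Its highest region, chr1:8877882-8878845, had a fold enrichment of 8.08 in siNC and 6.63 in siHSF1, with pileups of 21 (13.0 to 32.1) and 12 (6.20 to 21.0). At the LPP promoter end the siNC list had 2 peaks and the siHSF1 list 5, over 6.76 kb and 2.80 kb. A siNC peak of 5538 bp in the region chr3:187870247-187875787 stood against 3 siHSF1 peaks, while its fold enrichment was 9.31 in siNC and 8.68 in siHSF1 and its pileup 19 (11.4 to 29.7) and 16 (9.15 to 26.0). The median log2 ratio was -0.03 over the 2 shared regions of the LPP promoter end and -0.13 over the 24 in the rest. This LPP difference of 0.096 was 0.0062 with 20 kb in place of 10 kb and 0.458 with pileup scaled to tag number. In RERE the difference was -0.0082, -0.0082 and -0.053. No peak of either list lay in the first 10 kb of the LMO7 window. Gene starts on hg19 were not used here, so the promoter end follows the window and not an annotation, and whether each region is intronic on hg19 was not checked.

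Neighbouring peaks of both lists were joined into clusters at the stitching distance of the study's super-enhancer calls, which gave 8 clusters in RERE, 15 in LPP and 2 in LMO7. Of these, 15 held at least 3 siNC peaks. All 15 had less length under peaks in the siHSF1 list, and 10 had fewer peaks. The genome-wide share of such clusters was not counted. The limit of 3 was set on siNC peaks only, which favours clusters with more siNC peaks. Among those it left out, RERE clusters 7 and 8 and LPP cluster 9 had more siHSF1 peaks (5 against 2, 3 against 1 and 3 against 2). RERE cluster 5, LPP clusters 5, 6 and 13 and LMO7 cluster 2 had fewer, and LPP clusters 10 and 14 had equal numbers. Over all chromosomes the covered length in siHSF1 was 0.577 times that in siNC, so less cover was not particular to these clusters. Among the 6 with at least 10 siNC peaks, 5 had a covered length at most 0.5 times that of siNC and 3 at most 0.4 times, which 33.8% and 15.0% of the 619 clusters of that size genome-wide had. Of the same 6, 4 had fewer siHSF1 than siNC peaks (36.2% of the 619 did) and 0 had a highest fold enrichment at least 1.5-fold lower (9.53%).

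RERE held 3 large clusters in a row, which differed from each other. Cluster 3, chr1:8678752-8742269, 138 kb to 201 kb from the 5′ edge, had 22 siNC and 19 siHSF1 peaks over 28.2 kb and 9.62 kb, a ratio of 0.342. Its highest fold enrichment was 14.3 in siNC and 9.96 in siHSF1, and the median log2 ratio of its 9 shared regions was -0.44, with 7 of 9 lower. Cluster 2, chr1:8759693-8806861, nearer to the promoter end, had 14 and 14 peaks over 16.9 kb and 10.9 kb (0.648), a highest fold enrichment of 15.5 and 15.9 and a median log2 ratio of 0.04. Cluster 4, chr1:8609675-8651645, had 15 and 12 peaks over 12.6 kb and 5.23 kb (0.414) and a median log2 ratio of -0.29. Over the 619 large clusters the median covered ratio was 0.565 (quartiles 0.463 and 0.663) and the median of the cluster medians -0.05 (-0.21 and 0.09). Clusters 3 and 4 of RERE were thus below both lower quartiles, and cluster 2 lay within the quartiles on both measures.

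Within RERE cluster 3 the region chr1:8685241-8689091, 193 kb from the 5′ edge, had a pileup of 41 (29.4 to 55.6) in siNC and 19 (11.4 to 29.7) in siHSF1 and a fold enrichment of 14.3 and 9.96. There, 1 siNC peak of 3851 bp stood against 4 siHSF1 peaks covering 2667 bp. The regions with the largest decreases in RERE were both in this cluster. At chr1:8683756-8684485 the fold enrichment was 5.97 in siNC and 3.49 in siHSF1, with pileups of 12 (6.20 to 21.0) and 6 (2.20 to 13.1). At chr1:8723219-8725216 it was 9.65 and 5.98, with pileups of 20 (12.2 to 30.9) and 11 (5.49 to 19.7). The intervals of the pileups overlapped in each of these pairs. The highest RERE regions without a siHSF1 peak were chr1:8725632-8726441 in this cluster and chr1:8760549-8760998 in cluster 2, which tied at 6.57 with 15 tags (8.40 to 24.7) over the summit.

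The highest RERE region, chr1:8770918-8775456 in cluster 2, had a fold enrichment of 15.5 in siNC and 15.9 in siHSF1, covered 4199 bp and 4283 bp, and had pileups of 34 (23.5 to 47.5) and 26 (17.0 to 38.1). Its covered length was not shorter in siHSF1, and the same held for the promoter end region, with 834 bp and 857 bp. The region without a siNC peak that was highest, chr1:8770525-8770850, was next to it, with a fold enrichment of 5.98. The largest increases in RERE were at chr1:8627463-8629016 in cluster 4, from 3.59 to 6.12 (log2 ratio 0.77), and at chr1:8766979-8768012 in cluster 2, from 4.10 to 5.61 (0.45). In both the siHSF1 pileup was the lower one, 11 against 13 and 10 against 15. The region chr1:8630536-8633338 in cluster 4 had a fold enrichment of 11.9 and 9.79. Smaller clusters of RERE were cluster 1 at the promoter end, with 5 and 2 peaks (1 siNC peak lay just outside the window), and cluster 6, chr1:8522724-8526979, with 3 and 3 peaks, a highest fold enrichment of 5.59 and 5.48 and a median log2 ratio of 0.03.

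LPP had 9 clusters with at least 3 siNC peaks, spread over the window, and they went in both directions in height. Cluster 3, chr3:187972278-188019927, 102 kb to 150 kb from the 5′ edge, was the largest, with 20 and 17 peaks over 27.4 kb and 8.28 kb (0.302). Its highest fold enrichment was 9.64 in siNC and 11.2 in siHSF1, and the median log2 ratio of its 5 shared regions was -0.16. Cluster 1, chr3:187870247-187914432, which holds the promoter end, had 14 and 7 peaks over 11.9 kb and 3.21 kb (0.270), the lowest ratio among the large clusters of the 3 genes, with 11 of its regions in siNC only. Its highest fold enrichment was 9.31 and 8.68. The clusters with the most siNC cover in each window were RERE cluster 3, LPP cluster 3 and LMO7 cluster 1. By siNC cover they ranked 101, 105 and 210 of 15889 clusters, and by siHSF1 cover 381, 500 and 395. They were picked by siNC cover, so a place further down by siHSF1 cover was favoured by the choice.

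The highest LPP region in siNC was chr3:188461983-188465775 in cluster 12, 594 kb from the 5′ edge. Its fold enrichment was 14.0 in siNC and 7.94 in siHSF1 (log2 ratio -0.81), over 3751 bp and 2044 bp, with pileups of 28 (18.6 to 40.5) and 14 (7.65 to 23.5). Near the 3′ end of the window the region chr3:188597603-188601006 in cluster 15 went the other way, with a fold enrichment of 8.46 in siNC and 13.5 in siHSF1 (0.68), while its pileup was 32 (21.9 to 45.2) and 22 (13.8 to 33.3). Cluster 15 had 4 siNC and 5 siHSF1 peaks. In cluster 3 the region chr3:187980990-187986426 had a fold enrichment of 9.64 and 6.21 and a pileup of 28 (18.6 to 40.5) in siNC. The most enriched of its siHSF1 peaks had a pileup of 10 (4.80 to 18.4) and the siHSF1 peak with the highest pileup one of 12 (6.20 to 21.0), which overlapped the siNC interval. Tags were extended further in the siNC library, which raises its pileup at equal tag density.

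The largest decrease in LPP was at chr3:188065483-188067503 in cluster 4, where the fold enrichment was 6.48 in siNC and 3.09 in siHSF1 (log2 ratio -1.07) and the covered length 2021 bp and 208 bp. It was followed by chr3:188406795-188407410, with 5.82 and 3.08 (-0.92). The second largest increase was at chr3:188430370-188431253 in cluster 11, with 4.43 and 7.06 (0.67), where the pileups were 12 and 11. The highest region without a siHSF1 peak, chr3:187978565-187980803 in cluster 3, had a fold enrichment of 6.74 over 2239 bp, and the highest without a siNC peak, chr3:188557483-188557657, one of 5.30 over 175 bp. Of the smaller clusters, cluster 2 (chr3:187928218-187936851) had 4 and 4 peaks, cluster 4 (chr3:188065483-188070721) 3 and 2, cluster 7 (chr3:188235201-188245162) 5 and 1, cluster 8 (chr3:188257665-188276013) 9 and 7, cluster 11 (chr3:188425254-188431253) 5 and 3, and cluster 12 (chr3:188461983-188480105) 4 and 3. Their covered ratios ranged from 0.105 in cluster 7 to 0.698 in cluster 11.

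In LMO7 all but 1 of the peaks lay in cluster 1, chr13:76332972-76373518, 143 kb to 184 kb from the 5′ edge. It had 14 siNC and 15 siHSF1 peaks over 20.3 kb and 9.33 kb (0.459), and the remaining peak was a siNC peak 220 kb from the edge with a fold enrichment of 3.32. The highest region, chr13:76332972-76338153, had a fold enrichment of 15.4 in siNC and 10.7 in siHSF1 (log2 ratio -0.52) and pileups of 31 (21.1 to 44.0) and 20 (12.2 to 30.9), with 1 siNC peak of 5182 bp against 5 siHSF1 peaks over 3011 bp. The region chr13:76342702-76346205 had a fold enrichment of 11.5 and 9.41 (-0.29). The region chr13:76364101-76369697 had 11.6 and 12.9 (0.16), with 1 siNC peak of 5597 bp against 4 siHSF1 peaks over 3557 bp. At chr13:76347156-76347810 the values were 4.09 and 4.08. The highest region without a siHSF1 peak, chr13:76362408-76363655, reached 7.22 with 14 tags (7.65 to 23.5) over its summit, and no region of this window had a siHSF1 peak only. The pileup intervals of the siNC and siHSF1 peaks overlapped at every named LMO7 region.

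The 3 genes with their relatives and partners were searched for an HSF1 CUT&Tag peak within 1 kb of the outermost gene start. Of 20033 protein-coding genes, 21.9% had one. Of the 6 zyxin-family genes, 0 had one. Of 21 genes of LMO7 relatives and other actin-linked LIM proteins, 4 did, namely LIMS1 (PINCH1, an adaptor of integrin-linked kinase) with a fold enrichment of 9.76, PDLIM5 (a PDZ and LIM protein of actin filaments) with 9.09, PDLIM7 with 5.80 and LIMA1 (an actin-bundling LIM protein) with 5.77. Of 11 genes of the atrophin family and RERE partners, 2 did, HDAC1 (a histone deacetylase) with 6.90 and NR2F1 (an orphan nuclear receptor) with 7.76. Over the 3 lists that was 6 of 38 genes, or 15.8%. RERE, LPP and LMO7 were themselves not among them. Counted at any annotated start the numbers were 1, 7 and 5, or 13 of 38 (34.2%), against 25.6% of all protein-coding genes. The added genes were LIMD1, LMO7, ABLIM1, FHL2, RERE, ATN1 and HDAC2. In LIMD1, FHL2 and HDAC2 the peak was within 1 kb of the MANE Select start. The peaks of RERE and LMO7 at internal starts were already known, so these genes add nothing to the comparison with 25.6%.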

How the data were processed

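The authors deposited MACS2 peak lists, 1 per library and called without pooling. ChIP-seq lists (MACS 2.1.1.20160309, BWA and hg19 per the file headers, although the methods name Bowtie2 and hg38) were called against input at a q-value of 0.05, and CUT&Tag lists (MACS 2.1.4, hg38) at a p-value of 1e-05, with no control and with tags shifted by -100 bp and extended to 200 bp. Of the deposited columns, pileup is an unscaled signal and fold enrichment a ratio, while significance is given by the caller as -log10 p-value and as -log10 q-value. The CUT&Tag headers say that q-values were not calculated although the column is filled. RNA-seq was not analysed here, and 1 sequence and the count that included it are not reported here.

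On chromosomes 1 to 22, X and Y, peaks were merged where they shared at least 1 bp, and the highest peak of each list gave a region its height. Clusters were stitched at 12.5 kb. Annotation was GENCODE 44. Exact Poisson intervals (95%) cover counting error only. Python 3.11.15, numpy 2.4.6 and pandas 2.3.3 were used, and the merging, stitching and ratios were tested on simulated data. Named regions were set by a fixed rule: in each window, the clusters with at least 3 siNC peaks, the highest region of the promoter end, the 3 highest siNC regions elsewhere, the 2 largest decreases and increases, and the highest region of 1 list only. The genes, windows and lists were chosen with earlier results of these data known.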

Additional observations from a re-analysis of the deposited data

How the results depend on the processing

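No paired analysis was possible because each condition had 1 library and no test was run, so no replicate could be left out either. Over 27 results and 66 alternatives, 55 values stayed within 1.5 times of the reported value (or of 1.5-fold on the log2 scale), and 11 moved further. With pileup scaled to tag number and fragment length the median log2 ratio turned from -0.15 to 0.04 in RERE and from -0.10 to 0.03 in LPP, each still below the 0.24 of all shared regions. With pileup scaled to tag number the median log2 ratio was -0.73 in LPP and -0.79 in LMO7. The RERE median was then -0.73, a change just within the 1.5-fold limit, and the median over all shared regions moved as well. With stitching at 5 kb RERE had 9 clusters of at least 3 siNC peaks in place of 5 and LMO7 2 in place of 1, and the RERE cluster with the most siNC cover, then another one, had a covered ratio of 0.690. With -log10 q of at least 5, LPP had 5 such clusters in place of 9 and LMO7 2. Counted at any annotated start, 1 zyxin-family gene, 7 actin-linked LIM genes, 5 atrophin-family and partner genes and 13 in all had an HSF1 peak, RERE and LMO7 among them. The covered ratio of the windows ranged over the alternatives from 0.395 to 0.539 in RERE, from 0.292 to 0.418 in LPP and from 0.437 to 0.494 in LMO7. The ratio of peak number was 0.730 in RERE, 0.622 in LPP and 1.00 in LMO7 with -log10 q of at least 5. With fold enrichment of at least 5 it was 1.00, 0.861 and 1.375. The ratio over all chromosomes at these settings was not counted.

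Single libraries, pileups of 6 to 41 at the named peaks, and different fragment lengths limit what these lists can show. A siHSF1 peak absent from a region is a value below the caller's cutoff, not an absence of signal. Transcript levels of the 3 genes were not analysed here.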
